A study of Homo sapiens with 6 samples.

Results

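The genes of glycolysis, gluconeogenesis and pyruvate entry into the mitochondrion were followed in SKBR3 cells, a HER2-positive human breast adenocarcinoma line, with and without overexpressed cortactin (CTTN), an actin-binding protein. Members were the 41 genes of a list that runs from glucose uptake to the pyruvate dehydrogenase complex and back to glucose, each matched by symbol to the names of the 54644 gene rows of the deposited tables. All 41 had a row, and all 41 passed the filter on low counts, which left 14433 genes for testing. mRNA was sequenced from 6 samples in 2 groups. The 3 control samples were SKBR3 cells that carried the empty pLVX vector, and the 3 CTTN samples carried pLVX-CTTN. Both groups had been infected with lentivirus and selected with puromycin as stable cells, and no other allele, drug or time point separated them. The sources used here describe the 3 replicates of each group as biological replicates but do not say whether they came from separate infections, so an effect of the infection or of the selected cell pool and an effect of CTTN cannot be told apart. The adjusted p-values then measure the spread between these samples only. That spread was fitted per gene over both groups together, although the CTTN libraries differed more among themselves than the controls did.

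Glycolysis splits glucose into pyruvate in the cytosol, with an investment phase that uses ATP up to aldolase and a payoff phase that returns ATP and NADH from GAPDH onward. Pyruvate is either reduced to lactate by lactate dehydrogenase and exported by monocarboxylate carriers, or imported into mitochondria and oxidised by the pyruvate dehydrogenase complex, which its kinases switch off by phosphorylation. Gluconeogenesis runs the reversible steps backwards and bypasses the irreversible ones through pyruvate carboxylase, PEP carboxykinase, fructose-1,6-bisphosphatase and glucose-6-phosphatase. Tumour cells are known for a high use of glucose with release of lactate even where oxygen is present.

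The libraries held from 35618400 to 42126200 fragments. CTTN itself was measured at 299, 307 and 306 CPM in the control libraries and 793, 1011 and 520.1 CPM in the CTTN libraries, where CPM is the normalized, per-million count. The 3 CTTN libraries were all above the controls but differed among themselves, with CTTN 3 the lowest and CTTN 2 the highest. The log2 fold change of CTTN was 1.35 ± 0.22 (SE, n = 3 per group, edgeR adjusted p = 0.0249), and the call was lost without control 1, 2 or 3 or without CTTN 1, at edgeR adjusted p up to 0.154, and with the replicate number, which is uncertain for the controls, as a block, at 0.0563. The HER2 gene ERBB2 stood between 1644 and 1790.3 FPKM (fragments per kilobase of transcript and per-million fragments) in the 6 libraries, and the keratin genes KRT8, KRT18 and KRT19 lay between 750.6 and 3394 FPKM, whereas CDH1, the epithelial cadherin, stood at 0.0501 to 0.244 FPKM. The leukocyte markers PTPRC, CD3E and LYZ summed to 0.0647 to 0.349 FPKM, with CD68 left out of the sum because its row, at 605 to 855 FPKM, also holds EIF4A1 and SENP3, and the 5 fibroblast markers to 3.19 to 4.58 FPKM, nearly all of it COL1A1. The 3 endothelial markers summed to 4.12 to 4.62 FPKM in control cells and 1.55 to 2.17 FPKM in CTTN cells, of which CDH5 made up most and passed the test (edgeR adjusted p = 0.00845), with PECAM1 at or below 0.022 FPKM throughout. The part of these differences in the results on the 41 members was not tested. In bulk RNA, fewer cells that express a gene and less RNA per cell cannot be told apart.

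Of the 41 members, 3 passed the test (7.32%), against 4.2% of all genes tested, and the test was edgeR's quasi-likelihood test at a Benjamini-Hochberg adjusted p under 0.05 over all 14433 genes. PGM5 and FBP1 rose in CTTN cells, where 2.29% of all genes did, and SLC16A1 fell, where 1.91% of all genes did. PGM5 and FBP1 were also past a fold of 1.5, as were 3.2% of all genes. The other 38 members did not pass. Their largest absolute log2 fold change was 0.46, for PFKFB2 at -0.46, which became -0.70 without CTTN 2, where it passed (edgeR adjusted p = 0.00378), and -0.28 without CTTN 3, where it did not. Their smallest edgeR adjusted p was 0.0824. At an unadjusted p under 0.05, 13 members were higher and 4 lower in CTTN cells, together 17 of 41, against 30.2% of all genes. DESeq2 on the same counts called 4 members higher (PGM5, FBP1, PFKL and SLC16A3) and 1 lower (SLC16A1), against 7.41% and 6.92% of all genes. The median log2 fold change was 0.12 over the members and 0.011 over all genes. The median over the members was 0.17 without CTTN 2, 0.069 without CTTN 3 and 0.060 with the trend of each library with transcript length removed.

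The level of the members' rows ran from FBP1 at 0.598 ± 0.0368 FPKM in control cells and 2.55 ± 0.505 FPKM in CTTN cells to GAPDH at 4573 ± 69.8 FPKM in control cells and 5766 ± 1161 FPKM in CTTN cells (SD, n = 3). The isoforms assigned to ENO2, whose row holds mostly other genes, lay below FBP1, at 0.308, 0.325 and 0.266 FPKM in the control libraries and 0.450, 0.614 and 0.361 FPKM in the CTTN libraries. GAPDH, ENO1, ALDOA, LDHA, PKM and TPI1 had the highest levels, at 483 FPKM or more in control cells. At the other end, FBP1, PGM5, PFKFB4, the ENO2 row, SLC16A1, PDK1 and PDK2 were below 10 FPKM. The order of the group means from GAPDH to ENO1, ALDOA and LDHA was the same in both groups, but ENO1 and ALDOA did not keep their order in every CTTN library. ENO1 was above ALDOA in CTTN 1 (2071 against 1746 FPKM) and CTTN 2 (1734 against 1287 FPKM). In CTTN 3 it was below ALDOA (2403 against 2443 FPKM).

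**Figure D1:**
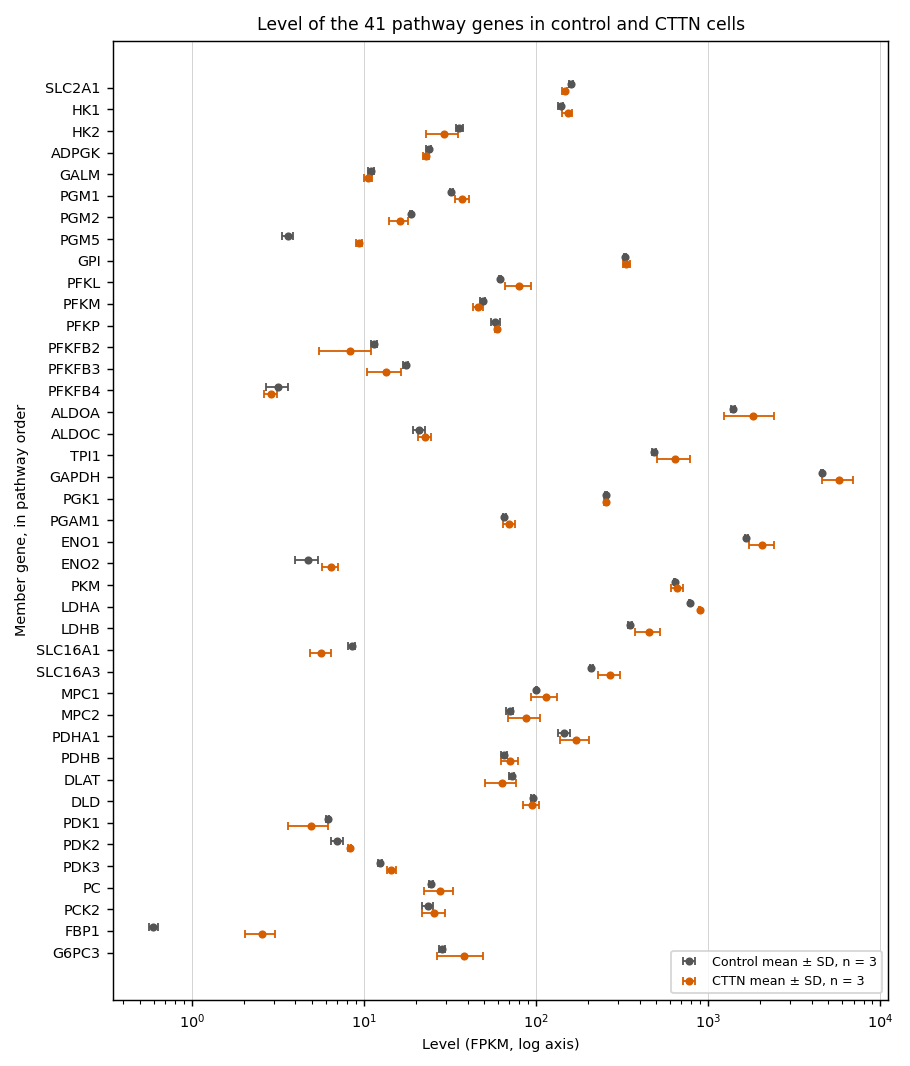
Level of each of the 41 members in pathway order on a log axis of FPKM, as mean ± SD of the 3 control libraries and of the 3 CTTN libraries. GAPDH lies highest and FBP1 lowest of the rows plotted (the point for ENO2 is a row that holds mostly other genes), and the 3 members that passed the test are FBP1 and PGM5 (higher in CTTN cells) and SLC16A1 (lower).

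The glucose carrier SLC2A1 (GLUT1), the carrier that brings glucose across the plasma membrane, was measured at 407, 401 and 425 CPM in the control libraries and 377, 372 and 356 CPM in the CTTN libraries. All 3 CTTN libraries were below the controls, by a log2 fold change of -0.16 ± 0.074, which did not pass the test (edgeR adjusted p = 0.19). HK1, the hexokinase that phosphorylates glucose in most tissues, stood at 533, 558 and 564 CPM in the control libraries and 538, 575 and 479 CPM in the CTTN libraries, and the groups overlapped. Its log2 fold change was -0.055 ± 0.092 on counts. On FPKM, HK1 was instead at 134, 142 and 143 FPKM in the control libraries and 151, 143 and 163 FPKM in the CTTN libraries. All CTTN libraries were above the controls, but CTTN 2 (143.5 FPKM) lay only just above control 3 (142.9 FPKM). In limma on log2(FPKM + 1) the log2 fold change of HK1 was 0.12 and did not pass (adjusted p = 0.349). Assembled isoforms of HK1 shifted in CTTN 3 and less in CTTN 1, but not in CTTN 2, and their part in the opposite sign was not tested. The full-length HK1 isoform of 3605 bases was at 121, 137 and 82.5 FPKM in CTTN 1, CTTN 2 and CTTN 3 and at 127 to 134 FPKM in the controls. A shorter assembled isoform of 1952 bases was at 80.7 FPKM in CTTN 3, 29.2 in CTTN 1, 6.21 in CTTN 2 and 6.53 to 8.11 in the controls. HK2, the inducible hexokinase, was lower in level (35.7 ± 1.68 FPKM in control cells and 29.0003 ± 6.02 FPKM in CTTN cells), and its log2 fold change was -0.32 ± 0.16 (edgeR adjusted p = 0.207). CTTN 2 lay within the control range for HK2, whereas CTTN 1 and CTTN 3 lay below it. ADPGK, which phosphorylates glucose with ADP, stood at 54.99, 56.7 and 58.5 CPM in the control libraries and 51.5, 55.6 and 49.5 CPM in the CTTN libraries. GALM, which interconverts the anomers of glucose and galactose, stood at 30.2, 29.2 and 28.6 CPM in the control libraries and 28.1, 26.99 and 27.9 CPM in the CTTN libraries. The log2 fold changes of ADPGK and GALM were -0.12 ± 0.082 and -0.084 ± 0.078, and neither passed.

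PGM1 and PGM2 link glucose-6-phosphate with glucose-1-phosphate and so with glycogen, and PGM5 (aciculin) is a related protein of cell adhesion sites with little enzyme activity. PGM5 was measured at 11.1, 11.9 and 9.98 CPM in the control libraries and 27.3, 25.96 and 26.1 CPM in the CTTN libraries. The groups lay far apart and the 3 CTTN libraries agreed closely with each other. PGM5 rose by a log2 fold change of 1.26 ± 0.096 (SE, n = 3 per group, edgeR adjusted p = 0.00323), 2.403-fold, and passed in each of the 6 fits that left out 1 library. The deposited locus of the PGM5 row was chr9:68306528-68531061 on GRCh38. PGM5 has near-identical pseudogene copies in the human genome, and reads shared between copies are uncertain. The rows of the PGM5 pseudogenes held at most 3.11 counts in any library, compared with 367 to 1000.3 counts for PGM5. The antisense gene PGM5-AS1, which overlaps the start of PGM5, was also higher in CTTN cells, at 5.16, 5.24 and 6.71 counts in the control libraries and 30.1, 19.5 and 55.4 counts in the CTTN libraries (edgeR adjusted p = 0.0348). That call was lost without CTTN 1 or any 1 of the controls (edgeR adjusted p up to 0.187), with the replicate number as a block (0.0518) and in limma on log2(FPKM + 1) (adjusted p = 0.0509). The library kit kept the strand of the RNA, but whether the counting used it is not given in the sources used here, so the split of reads between PGM5 and its antisense partner is uncertain. PGM1, the phosphoglucomutase with the highest level, stood at 79.3, 76.8 and 76.5 CPM in the control libraries and 88.6, 82.1 and 88.5 CPM in the CTTN libraries, all CTTN libraries above the controls (log2 fold change 0.16 ± 0.075, edgeR adjusted p = 0.199). PGM2 lay the other way, with all CTTN libraries below the controls (log2 fold change -0.19 ± 0.082, edgeR adjusted p = 0.166). Neither PGM1 nor PGM2 passed the test. The share of PGM5 in the summed FPKM of the 3 genes was 6.46%, 7.09% and 6.21% in the control libraries and 14.7%, 14.96% and 15.1% in the CTTN libraries.

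GPI, which turns glucose-6-phosphate into fructose-6-phosphate, stood at 814, 784 and 796 CPM in the control libraries and 781, 783 and 819 CPM in the CTTN libraries, with overlapping groups and a log2 fold change of -0.0072 ± 0.074. The 3 phosphofructokinase-1 genes encode subunits of the enzyme that commits hexose to glycolysis. PFKL was the highest of them by FPKM and stood at 177, 176 and 184 CPM in the control libraries and 212, 207 and 226 CPM in the CTTN libraries. All 3 CTTN libraries were above all controls, and the log2 fold change of 0.26 ± 0.076 did not pass (edgeR adjusted p = 0.0903). PFKM lay lower in all 3 CTTN libraries (log2 fold change -0.18 ± 0.078, edgeR adjusted p = 0.165), and PFKP overlapped between groups (log2 fold change 0.035 ± 0.094, edgeR adjusted p = 0.806). The share of PFKL in the summed FPKM of the 3 genes was 37.6%, 36.5% and 36.01% in the control libraries and 41.9%, 39.4% and 47.4% in the CTTN libraries. The PFKFB genes encode bifunctional enzymes that make and remove fructose-2,6-bisphosphate, the activator of phosphofructokinase-1. PFKFB3, the highest of them, was measured at 68.8, 70.95 and 73.5 CPM in the control libraries and 54.3, 65.6 and 41.6 CPM in the CTTN libraries. All CTTN libraries were lower, but CTTN 2 lay close to the controls and CTTN 3 far from them (log2 fold change -0.40 ± 0.16, edgeR adjusted p = 0.149). PFKFB2 had the same order of libraries, with 65.3 CPM in CTTN 2 and 36.4 CPM in CTTN 3 against 66.8 to 72.2 CPM in the controls. Its log2 fold change of -0.46 ± 0.20 was the largest in size among members that did not pass (edgeR adjusted p = 0.163). PFKFB4 overlapped between groups at a low level of 3.17 ± 0.459 FPKM in control cells and 2.88 ± 0.238 FPKM in CTTN cells.

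ALDOA, the main aldolase, which cleaves fructose-1,6-bisphosphate, stood at 1890.4, 1813 and 1846 CPM in the control libraries and 2114, 1786 and 2548 CPM in the CTTN libraries. CTTN 2 was below all controls and CTTN 3 was the highest library, so the groups overlapped (log2 fold change 0.22 ± 0.13, edgeR adjusted p = 0.278). ALDOC, the aldolase best known from brain, was at 21.002 ± 1.78 FPKM in control cells and 22.7 ± 1.98 FPKM in CTTN cells (log2 fold change 0.12 ± 0.096). TPI1, which interconverts the triose phosphates, was measured at 608, 601 and 583 CPM in the control libraries and 778, 627 and 953 CPM in the CTTN libraries. GAPDH, the first enzyme of the payoff phase and a common reference gene in qRT-PCR, was measured at 5728, 5678 and 5677 CPM in the control libraries and 6779.8, 5829 and 7880.2 CPM in the CTTN libraries. Both had the order CTTN 3, CTTN 1, CTTN 2 and then the controls. The log2 fold changes of TPI1 and GAPDH were 0.40 ± 0.15 (edgeR adjusted p = 0.139) and 0.26 ± 0.12 (edgeR adjusted p = 0.185), and neither passed. PGK1, which makes the first ATP of the payoff phase, stood at 651, 655 and 642 CPM in the control libraries and 665, 623 and 694 CPM in the CTTN libraries. PGAM1, the phosphoglycerate mutase, stood at 108, 111 and 109 CPM in the control libraries and 117, 106 and 123 CPM in the CTTN libraries. For PGK1 and PGAM1 the groups overlapped, with log2 fold changes of 0.024 ± 0.078 and 0.078 ± 0.083. ENO1, the main enolase, was measured at 3046, 3006 and 2943 CPM in the control libraries and 3639, 3124 and 4167 CPM in the CTTN libraries. It followed the order of TPI1 and GAPDH, with CTTN 2 nearest to the controls (log2 fold change 0.28 ± 0.12, edgeR adjusted p = 0.16). The row that lists ENO2, the neuronal enolase, also lists LRRC23, DSTNP2 and RPL13P5, and isoforms assigned to ENO2 held only 9.70% of its counts, so its log2 fold change of 0.31 ± 0.11 (edgeR adjusted p = 0.128) cannot be given to ENO2. The row is counted as 1 of the 41 members throughout.

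PKM, which makes pyruvate and the last ATP of glycolysis, was measured at 1630.3, 1616 and 1643 CPM in the control libraries and 1674, 1593 and 1748 CPM in the CTTN libraries. The groups overlapped and the log2 fold change was 0.037 ± 0.078 (edgeR adjusted p = 0.752). PKM transcripts include either exon 9, which gives the M1 form of differentiated tissues such as muscle, or exon 10, which gives the M2 form of proliferating cells. The pair of mutually exclusive exons is shown because the form of PKM is read from it. Each is 167 bases long, printed from the GENCODE transcript sequences with the 62 positions that differ in capitals, and they are 62.9% identical.
PKM exon 9 (M1): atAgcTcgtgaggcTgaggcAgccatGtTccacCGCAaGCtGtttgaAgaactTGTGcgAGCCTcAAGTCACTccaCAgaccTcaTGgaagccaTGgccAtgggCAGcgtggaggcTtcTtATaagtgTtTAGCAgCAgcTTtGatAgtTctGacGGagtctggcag
PKM exon 10 (M2): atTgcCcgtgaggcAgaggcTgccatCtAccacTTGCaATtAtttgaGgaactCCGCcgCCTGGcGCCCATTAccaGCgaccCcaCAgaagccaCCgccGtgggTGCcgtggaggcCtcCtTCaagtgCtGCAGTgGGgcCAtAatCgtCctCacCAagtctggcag
Isoforms with the M2 exon held 93.8%, 94.0% and 93.7% of the FPKM of PKM in the control libraries and 95.9%, 94.6% and 96.7% in the CTTN libraries. The CTTN libraries were all above the controls, at 95.7 ± 1.03% against 93.8 ± 0.113% (SD, n = 3 per group), and CTTN 2 lay nearest to the controls. Isoforms with the M1 exon held between 0.234% and 0.427% in the 6 libraries, with overlapping groups. The remainder was assigned to transcripts with neither exon or both, or to assembled transcripts that match no annotated one.

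LDHA, the lactate dehydrogenase subunit that dominates in glycolytic tissue, was measured at 1286, 1319.6 and 1278 CPM in the control libraries and 1561, 1419 and 1602 CPM in the CTTN libraries. All CTTN libraries were above all controls, and the log2 fold change of 0.24 ± 0.083 did not pass (edgeR adjusted p = 0.124). LDHB, the subunit that dominates in heart, had a log2 fold change of 0.40 ± 0.16 (edgeR adjusted p = 0.148) with overlapping groups, CTTN 2 being within the control range. SLC16A1 (MCT1), a carrier of lactate and pyruvate across the plasma membrane, was measured at 26.9, 30.03 and 26.7 CPM in the control libraries and 19.4, 20.03 and 17.7 CPM in the CTTN libraries. The CTTN libraries were all below the controls and close to each other. SLC16A1 fell by a log2 fold change of -0.55 ± 0.095 (SE, n = 3 per group, edgeR adjusted p = 0.0284), and its row lay at chr1:112911847-113073105 on GRCh38. The call was lost in 4 of the 6 fits that left out 1 library, those without control 1, 2 or 3 or without CTTN 1, with edgeR adjusted p up to 0.179. Its log2 fold changes were -0.59 to -0.49 over the 6 such fits. The call was also lost with the replicate number as a block (edgeR adjusted p = 0.0853), in limma on log2(FPKM + 1) (adjusted p = 0.0958) and when the trend with transcript length was removed (log2 fold change -0.31, edgeR adjusted p = 0.063). SLC16A3 (MCT4), the low-affinity carrier best known for lactate export, was measured at 283, 273 and 285 CPM in the control libraries and 359, 319 and 390.3 CPM in the CTTN libraries. It lay higher in all CTTN libraries (log2 fold change 0.34 ± 0.094), and its edgeR adjusted p of 0.0824 was the smallest among members that did not pass. By FPKM, SLC16A3 was far above SLC16A1, at 209.9 ± 3.44 FPKM in control cells and 268 ± 38.7 FPKM in CTTN cells against 8.49 ± 0.399 FPKM in control cells and 5.65 ± 0.774 FPKM in CTTN cells. The share of SLC16A1 in the summed FPKM of both carriers was 3.82%, 4.09% and 3.75% in the control libraries and 2.01%, 2.77% and 1.59% in the CTTN libraries.

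MPC1 and MPC2 form the carrier that brings pyruvate into mitochondria. MPC1, the higher by FPKM, was measured at 63.4, 62.7 and 62.99 CPM in the control libraries and 73.1, 57.3 and 93.5 CPM in the CTTN libraries, with CTTN 2 below and CTTN 1 and CTTN 3 above all controls. The log2 fold changes were 0.24 ± 0.17 for MPC1 (edgeR adjusted p = 0.322) and 0.37 ± 0.15 for MPC2 (edgeR adjusted p = 0.157). PDHA1 and PDHB, the E1 subunits of the pyruvate dehydrogenase complex, had log2 fold changes of 0.18 ± 0.099 and 0.17 ± 0.13. DLAT, the E2 subunit, had -0.14 ± 0.083, and DLD, the E3 subunit, had 0.097 ± 0.083. None of the 4 passed, and their edgeR adjusted p ranged from 0.243 to 0.416. PDHA1, the highest of the 4 by FPKM, was measured at 186, 195 and 185 CPM in the control libraries and 209, 192 and 239 CPM in the CTTN libraries. The kinases PDK1, PDK2 and PDK3 phosphorylate and switch off the complex. PDK3 was the highest by FPKM and was measured at 19.1, 19.9 and 19.2 CPM in the control libraries and 22.8, 23.2 and 22.99 CPM in the CTTN libraries. The 3 CTTN libraries of PDK3 agreed closely and were all above the controls, yet the log2 fold change of 0.24 ± 0.076 did not pass (edgeR adjusted p = 0.104). PDK2 lay higher (log2 fold change 0.27 ± 0.10, edgeR adjusted p = 0.141) and PDK1, a gene induced by hypoxia, lower (log2 fold change -0.33 ± 0.13, edgeR adjusted p = 0.148) in all 3 CTTN libraries, without passing. The share of PDK1 in the summed FPKM of the 3 kinases was 25.1%, 24.3% and 22.96% in the control libraries and 15.9%, 21.1% and 15.7% in the CTTN libraries. PDK1 has the longest transcripts of the 3, at 4634 bases against 1809 for PDK2 and 1885 for PDK3. When the trend with transcript length was removed, its log2 fold change was -0.033 (edgeR adjusted p = 0.799).

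PC, which carboxylates pyruvate to oxaloacetate in mitochondria, was measured at 84.9, 88.1 and 91.2 CPM in the control libraries and 79.2, 89.1 and 72.7 CPM in the CTTN libraries. PCK2, the mitochondrial PEP carboxykinase, was measured at 49.4, 47.2 and 46.1 CPM in the control libraries and 53.1, 46.3 and 55.4 CPM in the CTTN libraries. Both overlapped between groups, with log2 fold changes of -0.13 ± 0.097 and 0.12 ± 0.094. G6PC3, the widely expressed glucose-6-phosphatase, was measured at 25.3, 26.3 and 27.3 CPM in the control libraries and 32.8, 27.7 and 41.3 CPM in the CTTN libraries, all CTTN libraries above the controls (log2 fold change 0.37 ± 0.15, edgeR adjusted p = 0.152). FBP1, which removes a phosphate from fructose-1,6-bisphosphate and opposes phosphofructokinase-1, was measured at 0.795, 0.819 and 0.734 CPM in the control libraries and 2.84, 2.53 and 3.97 CPM in the CTTN libraries. These rested on 28.9, 29.7 and 26.8 counts in the control libraries and 104, 92.8 and 145 counts in the CTTN libraries. FBP1 had the largest difference of all members, at a low level, with all CTTN libraries above the controls. It rose by a log2 fold change of 1.99 ± 0.22 (SE, n = 3 per group, edgeR adjusted p = 0.0079), 3.96-fold. The call was lost in the same 4 fits as that of SLC16A1, without control 1, 2 or 3 or without CTTN 1, with edgeR adjusted p up to 0.0732 and log2 fold changes of 1.77 to 2.11 over the 6 such fits. The FBP1 row lay at chr9:94555054-94640249 on GRCh38 and listed no other gene. Its reference isoform of 1462 bases was at 0.600, 0.634 and 0.560 FPKM in the control libraries and 1.79, 1.83 and 3.11 FPKM in the CTTN libraries.

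The 250 bases before one of the starts of FBP1 in RefSeq (GRCh38.p14, chr9:94639519-94639768, minus strand, printed 5′ to 3′) are shown because FBP1 had the largest change among the members. On this strand the outermost start of the gene in RefSeq is at 94640263, so the stretch lies inside the FBP1 locus, and which start SKBR3 cells used was not tested. Capitals mark the GC box letters GGGCGG, which occur there 3 times, at 185, 167 and 57 bases before the start.
FBP1: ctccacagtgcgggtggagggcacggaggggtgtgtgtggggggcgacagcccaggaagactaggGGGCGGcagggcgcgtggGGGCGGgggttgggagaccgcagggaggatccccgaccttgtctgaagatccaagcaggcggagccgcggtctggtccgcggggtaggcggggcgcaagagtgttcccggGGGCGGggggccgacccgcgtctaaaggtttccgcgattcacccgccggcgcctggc
Its GC content was 72.8%, compared with a median of 58.0% over the 35097 promoters of the table. The median was 67.6% over all distinct starts of the 38 members that the table held. The GC box, searched as GGGCGG on both strands over the same 250 bases, was found in 26 of 38 members (68.4%) and in 42.6% of all promoters. ACGTG, the core of the hypoxia response element, was found in 14 members (36.8%) and in 18.5% of all promoters. The E-box CACGTG, which contains the letters of ACGTG, was found in 6 members (15.8%) and in 6.34% of all promoters. The TATA box, searched as TATAAA, was found in 3 members (7.89%) and in 10.7% of all promoters. The CCAAT box was found in 14 members (36.8%) and in 31.997% of all promoters. The GC box was the sole one of these motifs in the FBP1 window. For the motifs, each member was counted by its first listed start, and the promoters of all genes by every distinct start, whether or not the gene was expressed. The shares of members and of all promoters are therefore of unlike sets. These are matches of letters and not measured sites.

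**Figure D2:**
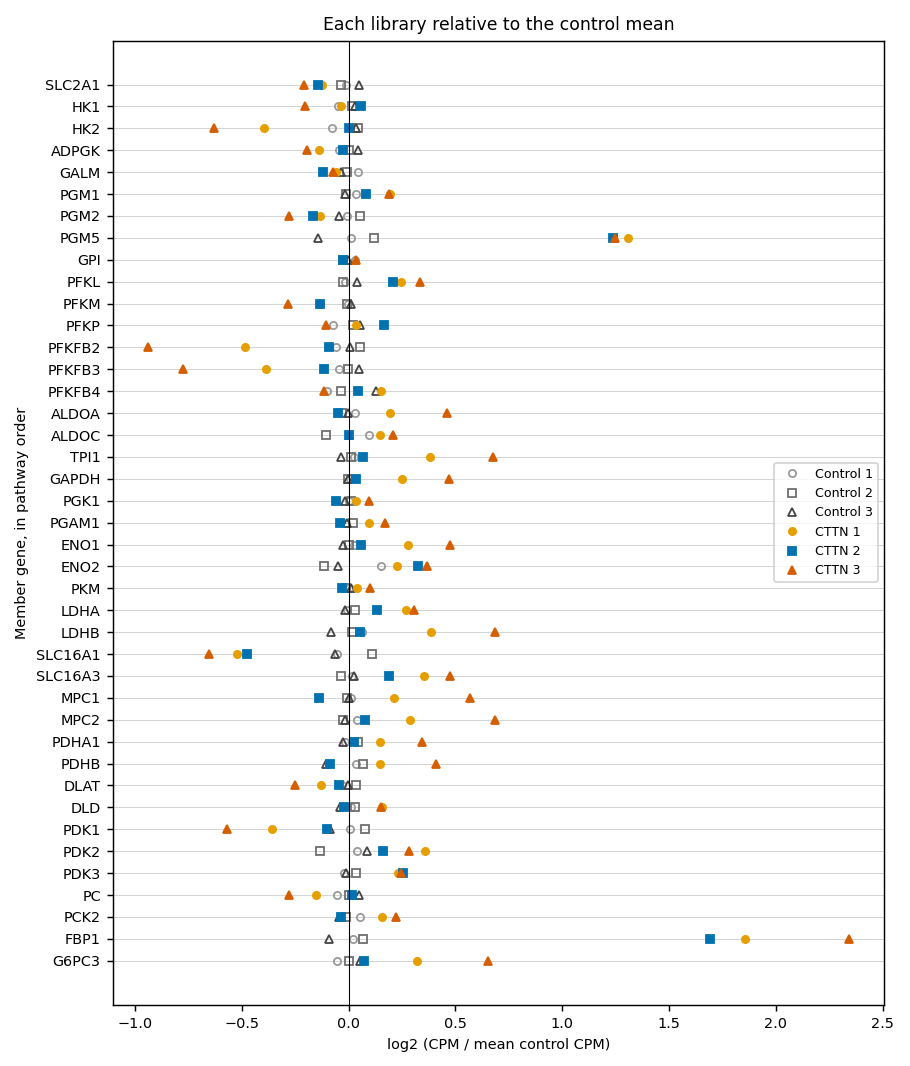
Level of each member in each of the 6 libraries as log2 of its CPM over the mean control CPM, in pathway order. Open grey symbols are controls and filled symbols are CTTN libraries, and CTTN 3 (triangles) lies farthest from the controls for most members while CTTN 2 (squares) lies nearest in 33 of 41.

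Across the members, all 3 CTTN libraries were above all controls for 14 members (34.1%, against 19.3% of all genes) and below all controls for 9 members (22.0%, against 19.4%). The groups overlapped for the other 18. CTTN 2 was the CTTN library nearest to the control mean in 33 of 41 members (80.5%) and in 62.4% of all genes. The order of the libraries for these members was therefore not that of CTTN itself, which was highest in CTTN 2. In the fit without CTTN 2, 17 members were higher and 5 lower at an edgeR adjusted p under 0.05, against 23.0% and 24.2% of all genes. Apart from PGM5, FBP1 and SLC16A3, the 17 included TPI1, GAPDH, ENO1, LDHA and LDHB, with log2 fold changes of 0.53, 0.36, 0.37, 0.28 and 0.54. Without CTTN 3 instead, the log2 fold changes of TPI1, GAPDH, ENO1, LDHA and LDHB were 0.23, 0.15, 0.17, 0.20 and 0.23, and none of them passed. The 5 lower members were HK2, PFKFB2, PFKFB3, SLC16A1 and PDK1. With CTTN 2 as the sole CTTN library, in a fit that takes its spread to be that of the controls, 5 members were higher (PGM5, FBP1, PFKL, SLC16A3 and PDK3) and SLC16A1 was lower, against 7.13% and 6.98% of all genes. TPI1 and GAPDH were then at log2 fold changes of 0.069 and 0.034.

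The log2 fold changes of the members followed the length of their transcripts. All 18 members' rows with transcripts under 2000 bases, the mixed ENO2 row among them, had a positive log2 fold change (median 0.27), and of the 23 members at 2000 bases or more, 9 had a positive and 14 a negative one (median -0.084). The same medians over all genes were 0.25 (5759 genes) and -0.13 (8674 genes). Spearman's rho between log2 fold change and length was -0.79 over the 41 members and -0.55 over the 14433 genes, as a description across genes that share the same libraries. In single CTTN libraries, set against the control mean, rho over the members was -0.75 in CTTN 1, -0.33 in CTTN 2 and -0.85 in CTTN 3, and over all genes -0.54, -0.046 and -0.68. The summed FPKM of all genes was also higher in CTTN 1 (704018) and CTTN 3 (852256) than in CTTN 2 (605260) and the controls (603634 to 624680). The short transcripts of TPI1, GAPDH, ENO1, LDHB, MPC1, MPC2 and G6PC3 were among those higher, and the long transcripts of HK2, PFKFB2, PFKFB3 and PDK1 among those lower, in CTTN 1 and CTTN 3. When the trend of each library with length was removed, an alternative chosen after the data had been seen, rho over the members was -0.25. PGM5, FBP1, PFKL and SLC16A3 then passed as higher and no member passed as lower, against 8.13% and 5.74% of all genes. The log2 fold changes became 1.38, 1.79, 0.38 and 0.26 for these 4. For SLC16A1 it became -0.31 (edgeR adjusted p = 0.063), for GAPDH 0.028, for PFKFB2 -0.067 and for HK2 0.048, the last with the sign turned.

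For the 9 steps with more than 1 isozyme among the members, the same isozyme had the highest FPKM in all 6 libraries. These were HK1, PGM1, PFKL, PFKFB3, ALDOA, ENO1, LDHA, SLC16A3 and PDK3. By counts, which favour long transcripts, the top isozyme was the same in every library in 7 of the 9 steps. The steps that differed were those of the PFKFB genes and of the pyruvate dehydrogenase kinases. In the latter, PDK1 had more counts than PDK3 in all controls and fewer in all CTTN libraries, only just so in CTTN 2 (849 against 852 counts). ALDOA held 98.5 ± 0.0968% of the aldolase FPKM in control cells and 98.7 ± 0.295% in CTTN cells. LDHA held 69.01 ± 0.799% and 66.6 ± 3.502% of the lactate dehydrogenase FPKM, with overlapping groups. The share of HK1 was 79.9%, 79.4% and 79.6% in the control libraries and 84.5%, 80.1% and 87.3% in the CTTN libraries, a pair of groups that did not overlap but in which CTTN 2 stood close to the controls.

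**Figure D3:**
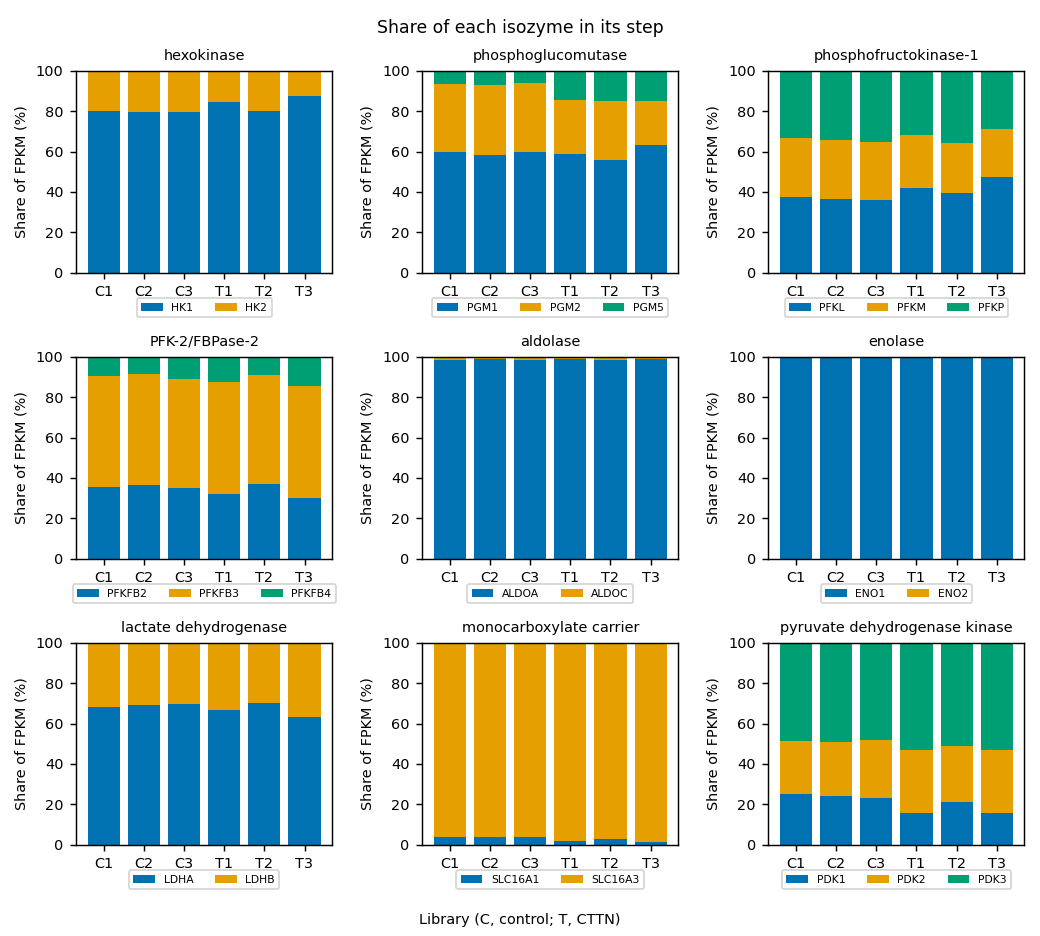
Share of each isozyme in the summed FPKM of its step (%), as stacked bars for the 3 control libraries (C1 to C3) and the 3 CTTN libraries (T1 to T3). The top isozyme of each step is the same in all 6 libraries, and the share of PGM5 is 6.21% to 7.09% in controls and 14.7% to 15.1% in CTTN cells (the ENO2 row holds mostly other genes).

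The isoform table held 682 isoforms of the members, of which 244 passed the filter on low counts. At the isoform level edgeR called none of them, with 10 higher and 9 lower at an unadjusted p under 0.05 and a smallest edgeR adjusted p of 0.493, and it called 0 of all 58275 isoforms tested (0.0%, with 6.24% at an unadjusted p under 0.05). DESeq2 called 4 higher and 2 lower, against 2.04% of all isoforms tested. The 4 were the reference isoform of FBP1, PGM5 isoforms of 3338 and 2142 bases and a PFKL isoform of 6007 bases, and the 2 were an ALDOA isoform of 666 bases and a PKM isoform of 2330 bases. Levels of single isoforms are estimates that share reads among overlapping transcripts.

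In 6 lists of genes around the pathway, 103 of the 125 genes with a row were tested and 6 passed, 3 higher and 3 lower in CTTN cells, beside 2.29% higher and 1.91% lower (4.2% together) of all genes tested. Among other glycolysis isozymes, regulators and carriers, 1 of 24 passed, the fructose carrier SLC2A5, which rose (log2 fold change 0.99 ± 0.20, edgeR adjusted p = 0.041) at a very low level of 0.592 and 1.18 CPM. In the pentose phosphate branch, 1 of 12 passed, PRPS2, which makes phosphoribosyl pyrophosphate and fell from 13.3 to 6.57 CPM (log2 fold change -1.02 ± 0.089, edgeR adjusted p = 0.00405). In glycogen metabolism, 3 of 16 passed. GYG2, which primes glycogen synthesis, rose from 5.698 to 13.1 CPM (edgeR adjusted p = 0.00405). GAA, the lysosomal enzyme that degrades glycogen, rose from 111 to 155 CPM (edgeR adjusted p = 0.0365). EPM2A, the glycogen phosphatase laforin, fell from 5.45 to 3.31 CPM (edgeR adjusted p = 0.0288), and it also stands in a list that the study chose on these samples, which makes it no independent evidence. In the citric acid cycle list, 1 of 23 passed, IDH1, the cytosolic isocitrate dehydrogenase, which fell from 127 to 87.5 CPM (edgeR adjusted p = 0.028). None of the 10 shuttle genes and none of the 18 genes of the galactose, fructose, mannose and hexosamine branches passed. None of the 6 passed without control 2 or without CTTN 1, and SLC2A5, EPM2A, GAA and IDH1 also lost their calls without control 1 or control 3. The median log2 fold changes of the 6 lists lay between 0.0030 and 0.11.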

How the data were processed

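RNA from 6 SKBR3 samples was sequenced as poly(A)-selected, stranded mRNA libraries. Per the labels and methods, reads were trimmed, aligned with STAR and assembled and quantified with Cufflinks, and the loci in the tables lie on GRCh38. The deposited estimated counts are fragments per gene row divided by a library size factor, and multiplied by that factor 100% of values up to 200 reads were whole within 0.01 reads. The deposited FPKM values are those fragments per kilobase of transcript and per-million fragments, as the authors' software gave them. The labels name the control columns by other numbers than the tables, so the 3 columns that the deposited sample table calls controls were taken as the control group and none was tied to 1 control sample.

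Rounded counts were tested with edgeR 4.0.16 in R 4.3.3 (TMM scaling, filterByExpr, quasi-likelihood test, all 6 samples, no covariate) with Benjamini-Hochberg adjustment over all genes tested. A gene passed at an adjusted p under 0.05. CPM values are TMM-scaled, and FPKM was used to compare levels between genes. Fits with the filter, the scaling, the tool or the unit changed, or with libraries left out, served as alternatives. limma 3.58.1 was run on log2(FPKM + 1) and log2(FPKM + 0.1), and DESeq2 1.42.0 on the rounded counts. Transcript length is the FPKM-weighted mean over a row's isoforms. Scripts were tested on simulated data. Promoters came from RefSeq (GRCh38.p14) and PKM exons from GENCODE transcripts.

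Named genes were CTTN, all members, library values for members that passed and for the isozyme with the highest FPKM of each step, up to 4 genes per list that passed with the smallest adjusted p, and member isoforms that passed or belong to PKM. The library values of GALM and ADPGK are shown as they are single-gene steps. Cell type markers were named as a separate set. PGM5-AS1, the PGM5 pseudogenes and the HK1 isoforms were named in addition, outside these rules. The members, the lists and the added alternatives were chosen with earlier results of these data known.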

Additional observations from a re-analysis of the deposited data

How the results depend on the processing

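The direction of PGM5, FBP1, SLC16A1 and CTTN was kept in every alternative run, and none of the 48 genes followed through 17 settings reversed a call. Of 816 comparisons of a gene with a setting, 57 lost a call and 26 gained one, and 43 values that passed in neither fit changed sign, in 16 genes. Counts below are given as higher and lower in CTTN cells, first for all genes (331 and 275), then for members (2 and 1) and for the neighbouring lists (3 and 3). DESeq2 gave 1070 and 999, 4 and 1, and 12 and 8, and for member isoforms 4 and 2 in place of 0 and 0. Removing the length trend gave 1173 and 828, 4 and 0, and 18 and 7. Leaving out CTTN 1 and CTTN 3, the libraries with the steeper length trend, gave 1076 and 1052, 5 and 1, and 11 and 11. On the recovered whole reads 643 genes in both directions together, 2 and 1 members and 3 and 3 genes of the lists passed. limma gave 106 and 79 on log2(FPKM + 1) and 107 and 73 on log2(FPKM + 0.1), with 2 and 0 members and 1 and 2 genes of the lists on both, and SLC16A1 at limma adjusted p = 0.0958 and 0.0940.

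Leaving out 1 library moved the counts from 10 to 3394 and from 5 to 3559 for all genes, from 1 to 17 and from 0 to 5 for members, and from 0 to 24 and from 0 to 19 for the lists. The highest of these came without CTTN 2. Without control 1, control 2, control 3, CTTN 1 and CTTN 3 the calls over all genes were 29, 15, 30, 18 and 1244, of which 29, 15, 30, 18 and 603 were among the original 606. Keeping only the control columns named in the sample descriptions is the fit without control 1 (16 and 13, 1 and 0, 1 and 1). The cause of these shifts was not tested. CTTN itself had edgeR adjusted p up to 0.154 in these fits, with log2 fold changes of 1.10 to 1.57.

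With the replicate number as a block, 54 and 55 genes passed, with 2 and 0 members (PGM5 and FBP1) and 1 and 1 genes of the lists, and edgeR adjusted p was 0.0853 for SLC16A1 and 0.0563 for CTTN. Same-numbered control and CTTN libraries had correlations of 0.028, 0.079 and -0.19 between their deviations from the group means. These rest on few libraries per group, and whether same-numbered libraries shared more than a number was not tested. The control numbers are those of the deposited sample table, and the labels number the control columns otherwise, so the pairs behind every value from the block are uncertain.

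With 3 samples per group and adjustment over 14433 genes, a member's log2 fold change of 0.26 at an SE of 0.076 (PFKL) did not pass in the main edgeR fit. PFKL did pass without CTTN 2 (edgeR adjusted p = 0.0155) and with the length trend removed (edgeR adjusted p = 0.035). FBP1 rests on under 30 counts per control library. The sign differed between the fits on counts and on FPKM for HK1, GPI, PFKFB4, PGK1, DLD and PC. Intervals and p-values cover neither the infection nor the cell pool.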
